A study of Rattus norvegicus with 6 samples.

Results

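Sensory neurons of the dorsal root ganglia (DRGs) hold their identity through a small set of transcription factors, and 10 of these were followed here: Pou4f1, Isl1, Isl2, Drgx, Tlx3, Pou4f2, Pou4f3, Runx1, Runx3 and Prdm12. They were taken by name from a table of 25689 genes. Each had 1 row in the table, and all 10 were among the 14919 genes with enough counts to be tested. Pou4f1, Isl1, Isl2, Drgx and Tlx3 were treated as 5 broad factors, and the other 5 as factors of subtypes, a division made from general knowledge.

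The RNA came from L1-L2 DRG neurons of spontaneously hypertensive rats (SHRs), an inbred strain with high blood pressure that the labels call wild type. In 3 samples the perirenal adipose tissue had been removed surgically (PRATA), and the 3 control samples came from sham-operated SHRs. Both groups were taken 4 weeks after the operation, and the labels give all rats an age of 6 to 8 weeks whereas the study's methods give 12 weeks at purchase. The ganglia were digested and neurons and glial cells were parted by how fast they adhere in culture, and glial transcripts were still present in every sample. Nothing says that the 3 samples of a group were separate rats, and p-values therefore measure the spread between these samples, which may be technical.

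Pou4f1 and Isl1 switch newborn sensory neurons from a general neuronal programme to a sensory one and stay on in the adult. Subtype factors then divide the neurons: Runx1 and Prdm12 act in pain-sensing and related small neurons, and Runx3 in proprioceptors, the neurons of muscle position sense. Tlx3 and Drgx are homeobox factors of glutamatergic relay and sensory neurons that detect pain and itch.

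The factors' own start regions are shown for Pou4f1 and Runx1, the members with the largest difference between groups in either direction. Each is the stretch of 250 bases before the transcription start from RefSeq (build GRCr8, minus strand in both cases), at chr15:87674644-87674893 for Pou4f1 and chr11:45421326-45421575 for Runx1, read 5' to 3' along the gene. Capitals mark E-boxes of the form CAGCTG or CAGGTG on either strand, a core that helix-loop-helix factors bind.
Pou4f1: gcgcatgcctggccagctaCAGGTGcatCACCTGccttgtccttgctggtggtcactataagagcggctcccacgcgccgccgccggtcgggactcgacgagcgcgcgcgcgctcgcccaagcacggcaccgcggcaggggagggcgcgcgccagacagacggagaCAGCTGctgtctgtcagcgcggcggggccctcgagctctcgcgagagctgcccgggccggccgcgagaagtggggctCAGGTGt
Runx1: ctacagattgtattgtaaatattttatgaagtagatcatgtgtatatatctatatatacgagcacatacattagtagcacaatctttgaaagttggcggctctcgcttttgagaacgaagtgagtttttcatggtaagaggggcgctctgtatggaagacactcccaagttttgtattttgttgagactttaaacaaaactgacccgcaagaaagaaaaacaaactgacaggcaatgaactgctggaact
The Pou4f1 stretch was 72.4% G and C and held 4 E-boxes, CAGCTG at 84 bases before the start and CAGGTG at 231, 222 and 7 bases before it. The Runx1 stretch was 37.2% G and C and held neither form. Of 33469 such stretches in the rat, 12% held CAGCTG and 15.9% held CAGGTG. Among the 12 stretches of the 10 factors, CAGCTG was in 2 (Pou4f1 and Pou4f2) and CAGGTG in 3 (Pou4f1, Pou4f3 and Runx3). The homeodomain core TAATTA, in 4.86% of all stretches, was in 0 of the 12, and the Runt site TGTGGT, in 14.5% of all, was in 1, that of Runx3. A match is a run of letters and not a measured binding site.

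Sequencing gave 5892967 to 15226952 counts per sample, and values are given as TMM-normalised CPM, which are counts per 1000000 counts of a sample, on which 3 counts were 0.207 to 0.467 CPM depending on the sample. Such a floor covers counting error only. Sensory neurons were present in all 6 samples: Avil, an advillin gene of sensory neurons, was at 380.5 CPM or more, and Scn10a, the Nav1.8 channel gene of nociceptors, at 612.6 CPM or more. Markers of other neurons that use Isl1 or Isl2 were mixed. Mnx1, Lhx3, Chat and Slc18a3 of motor neurons and Dbh of sympathetic neurons were under 1 CPM in every sample. Slc5a7 of the motor neuron list was at 4.52 to 18.4 CPM, and Slc18a2 of the sympathetic list at 6.06 to 8.20 CPM. Phox2a and Ddc of the sympathetic list each reached 2.18 CPM in sham replicate 2. In all, the 5 motor neuron markers summed to 14.3 to 18.7 CPM after PRATA and 5.28 to 17.4 CPM after sham, and the 4 sympathetic markers in the table to 6.69 to 8.52 and 6.34 to 11.2 CPM. PRATA replicate 3 and sham replicate 1 stood apart, because 98.9% and 99.5% of their reads on the pair of main 7SL RNA rows lay on Rn7sl1, against 47.3 to 49.3% in the other 4 samples. Results are therefore also given for those 4 samples, 2 of each group.

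After PRATA, 9 of the 10 factors were higher than after the sham operation and Runx1 was lower. Their median log2 fold change was 0.55, beside 0.02 over all genes tested, of which 52% had a fold change above 0. At an adjusted p under 0.05 (edgeR quasi-likelihood test, Benjamini-Hochberg over all genes), 0 factors were called, as were 0% of all genes in either direction, with 0.156 as the smallest adjusted p. At an unadjusted p under 0.05, 6 factors were higher and 1 was lower, where 8.19% of all genes were higher and 10.1% lower. In 5 factors the lowest PRATA sample exceeded the highest sham sample, and in Runx1 all PRATA samples were under the lowest sham sample, as was so for 11.6% and 11.2% of all genes. The broad factors had a median of 0.53 and the subtype factors of 0.56, with 3 of 5 higher at an unadjusted p under 0.05 in each, so the division into broad and subtype factors did not separate them and only the single lower gene fell on the subtype side. Because RNA was taken from whole samples, a smaller number of cells of a type and less RNA per cell cannot be told apart.

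**Figure D1:**
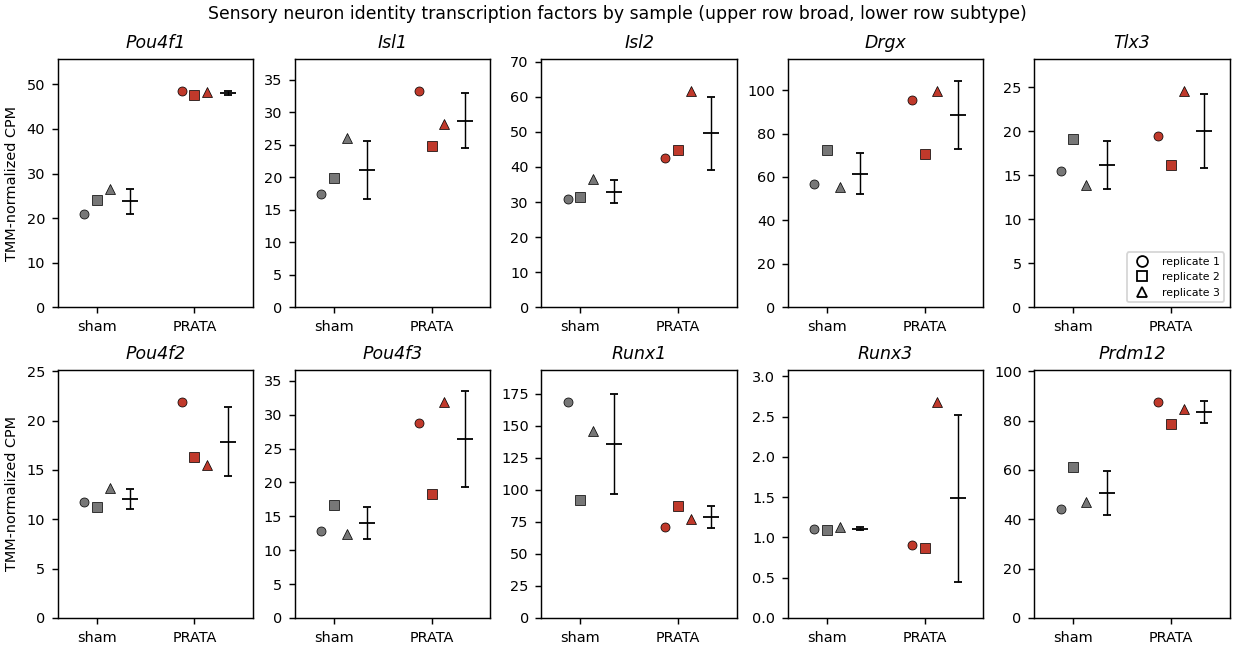
TMM-normalised CPM of the 10 factors in each sample, with broad factors above and subtype factors below; symbols give the replicate, and bars the mean ± SD of 3 samples. The 3 PRATA samples of Pou4f1 sit between 47.5 and 48.4 CPM, above the sham samples at 20.9 to 26.5, while Runx1 lies lower after PRATA.

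Pou4f1 (ENSRNOG00000060662), which encodes the POU factor Brn3a of nearly all sensory neurons, showed the clearest difference. It was at 48.4, 47.5 and 48.3 CPM in PRATA replicates 1, 2 and 3 and at 20.9, 24.0 and 26.5 CPM in the sham samples. The PRATA samples had an SD of 0.477 around 48.1 CPM against 2.80 around 23.8 CPM, and each was higher than every sham sample. They rested on 376, 598 and 612 counts, and counting error alone is wider than that SD, so their closeness is not read as a result. The log2 fold change was 1.02 ± 0.17 (SE), a fold of 2.02, with an unadjusted p of 0.0002619 and an adjusted p of 0.156, and it ranked 16 by p among the genes tested. It was the only factor past a log2 fold change of 1 as well as an unadjusted p under 0.05, which 1.17% of genes met in the higher direction. Within the 4 samples that shared the 7SL copy it was 0.92, with an unadjusted p of 0.004504.

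The LIM homeobox partners Isl1 and Isl2, which work beside Pou4f1, differed in how far the groups separated. Isl2 was at 42.6, 44.7 and 61.5 CPM after PRATA and at 30.9, 31.4 and 36.6 CPM in the sham samples, so the groups did not overlap. Its log2 fold change was 0.59 ± 0.20 (unadjusted p = 0.01748, adjusted p = 0.203), and 0.35 in the 4 samples, where the unadjusted p was 0.18. Isl1 was at 33.2, 24.8 and 28.2 CPM against 17.4, 19.9 and 26.0 CPM, and sham replicate 3 lay above PRATA replicate 2. Its log2 fold change of 0.44 ± 0.21 had an unadjusted p of 0.070. Counts of Isl1 made up 43.8, 35.7 and 31.4% of those of both genes in the PRATA samples and 36.1, 38.8 and 41.5% in the sham samples, with no separation between groups.

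Drgx and Tlx3, homeobox genes of the pain and itch pathway, overlapped between groups. Drgx was at 95.5, 70.7 and 99.4 CPM after PRATA and at 56.6, 72.4 and 55.4 CPM after sham, where PRATA replicate 2 and sham replicate 2 crossed. Its log2 fold change was 0.53 ± 0.20 (unadjusted p = 0.02761), and 0.37 with an unadjusted p of 0.1829 in the 4 samples. Tlx3 was at 19.4, 16.2 and 24.5 CPM against 15.5, 19.1 and 13.9 CPM, a log2 difference of 0.32 ± 0.23 (edgeR) with an adjusted p of 0.476.

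Among the subtype factors, Pou4f2 and Pou4f3, relatives of Pou4f1 present in smaller sets of sensory neurons, were both higher after PRATA. Pou4f3 was at 28.8, 18.4 and 31.9 CPM against 12.9, 16.7 and 12.3 CPM, and PRATA replicate 2 lay only just above sham replicate 2. The log2 fold change was 0.92 ± 0.25 (unadjusted p = 0.006248, adjusted p = 0.168), and 0.70 with an unadjusted p of 0.05887 in the 4 samples. Pou4f2 was at 21.9, 16.3 and 15.5 CPM against 11.8, 11.2 and 13.2 CPM, with 0.56 ± 0.21 (unadjusted p = 0.02857), and 0.63 with an unadjusted p of 0.06428 in the 4 samples. Reads of near-identical stretches could be shared among the 3 Pou4f genes, and how the counting treated them is not given in the sources used here.

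Prdm12, a chromatin regulator needed for pain-sensing neurons, was at 87.5, 78.6 and 84.6 CPM after PRATA and at 44.2, 61.0 and 46.8 CPM in the sham samples. The groups were apart, the lowest PRATA value being replicate 2 and the highest sham value also replicate 2. Its log2 fold change of 0.72 ± 0.18 had an unadjusted p of 0.003451 and an adjusted p of 0.158, and in the 4 samples it was 0.62 with an unadjusted p of 0.03097. Runx3, the proprioceptor factor, had only 7, 11 and 34 counts in the PRATA samples and 16, 7 and 12 in the sham samples. Sham values were near 1.11 CPM and PRATA replicate 3 alone reached 2.68 CPM. The log2 fold change of 0.44 ± 0.57 (unadjusted p = 0.462) changed sign to -0.32 without that sample, so a difference was not detectable at this depth.

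Runx1 (ENSRNOG00000001704), the Runt factor that divides non-peptidergic from peptidergic nociceptors, was the one factor lower after PRATA. It was at 70.7, 87.6 and 77.2 CPM against 168.5, 92.3 and 145.9 CPM, and sham replicate 2 lay close above PRATA replicate 2. The log2 fold change was -0.79 ± 0.24 (unadjusted p = 0.01033, adjusted p = 0.179), and in the 4 samples it was -0.60 with an unadjusted p of 0.07408. Set against Pou4f1 within a sample, which no scaling between samples can alter, there were 1.46, 1.84 and 1.6 Runx1 counts per Pou4f1 count after PRATA and 8.07, 3.85 and 5.51 in the sham samples. The ratios of the groups did not overlap. That followed from Pou4f1 being higher and Runx1 lower in every PRATA sample than in any sham sample, and is no separate support. The exact two-sided permutation test of 3 samples against 3 cannot fall below a p of 0.1.

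**Figure D2:**
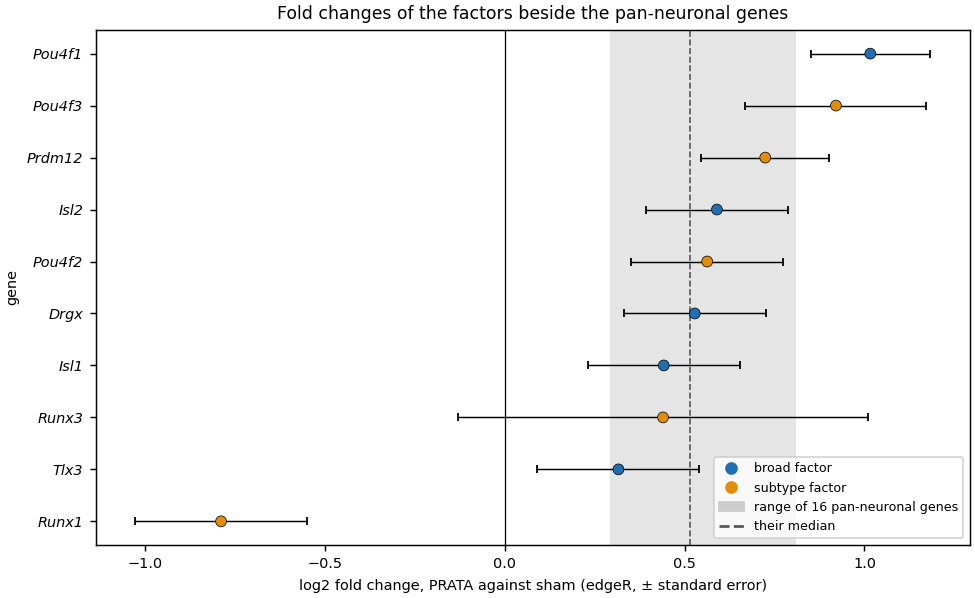
Log2 fold change (PRATA against sham, edgeR) of each factor with its standard error, ordered by size, on a shaded band from the lowest to the highest of 16 pan-neuronal genes with their median dashed. Pou4f1 and Pou4f3 lie above the band, Runx1 lies below 0, and the other 7 points lie within it.

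Other tools placed some of these factors past the adjusted threshold. DESeq2 called Pou4f1 (adjusted p = 0.0007645), Prdm12 (0.0239) and Pou4f3 (0.03959) higher and Runx1 (0.04245) lower, where it called 2.28% of the genes it adjusted as higher and 4.98% as lower. limma voom with sample quality weights called the same 4, Pou4f1 at an adjusted p of 0.03151, Prdm12 at 0.03242, Pou4f3 at 0.04217 and Runx1 at 0.03776, with 2.99% and 4.87% of all genes called higher and lower. Without sham replicate 2, the sample with the fewest counts, edgeR called Pou4f1 and Prdm12 higher and Runx1 lower, at adjusted p of 0.03628, 0.03628 and 0.03404, beside 1.05% and 3.62% of all genes.

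Neuronal genes as a whole were also higher after PRATA. All 16 pan-neuronal genes had a fold change above 0, with a median log2 fold change of 0.52 and a range of 0.29 to 0.81. Of them, 4 were higher at an unadjusted p under 0.05, beside 8.19% of all genes. Their summed level was 20270, 13830 and 20410 CPM after PRATA and 9360, 14300 and 11790 CPM after sham, so PRATA replicate 2 and sham replicate 2 crossed. Satellite glia markers were lower after PRATA by median (-0.47) and myelinating Schwann cell markers higher (0.78, 10 of 10 above 0), and the part of these shifts in the factors' values was not tested. Each factor was therefore also taken relative to the mean log2 level of these genes in its own sample.

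On that scale, the groups of Pou4f1 and Runx1 did not overlap, and those of the other 8 factors did. Of all genes tested, 0.61% lay above sham in every PRATA sample on this scale, as Pou4f1 did, and 29.2% lay below, as Runx1 did. Relative Pou4f1 was -3.61, -3.22 and -3.55 after PRATA and -3.80, -4.26 and -3.76 after sham, a difference of 0.48 on the log2 scale (exact permutation p = 0.1, two-sided, the smallest possible). Relative Runx1 was -3.06, -2.34 and -2.87 against -0.79, -2.32 and -1.30, a difference of -1.29 (exact permutation p = 0.1), and PRATA replicate 2 and sham replicate 2 were nearly equal. Pou4f3 differed by 0.35 and Prdm12 by 0.20 with overlapping groups. The other 6 lay between -0.33 and 0.03 and overlapped, among them Drgx at -0.02 and Isl2 at 0.03. By fold change, all 16 pan-neuronal genes lay below Pou4f1 and below Pou4f3, 13 below Prdm12, 10 below Isl2 and 1 below Tlx3.

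**Figure D3:**
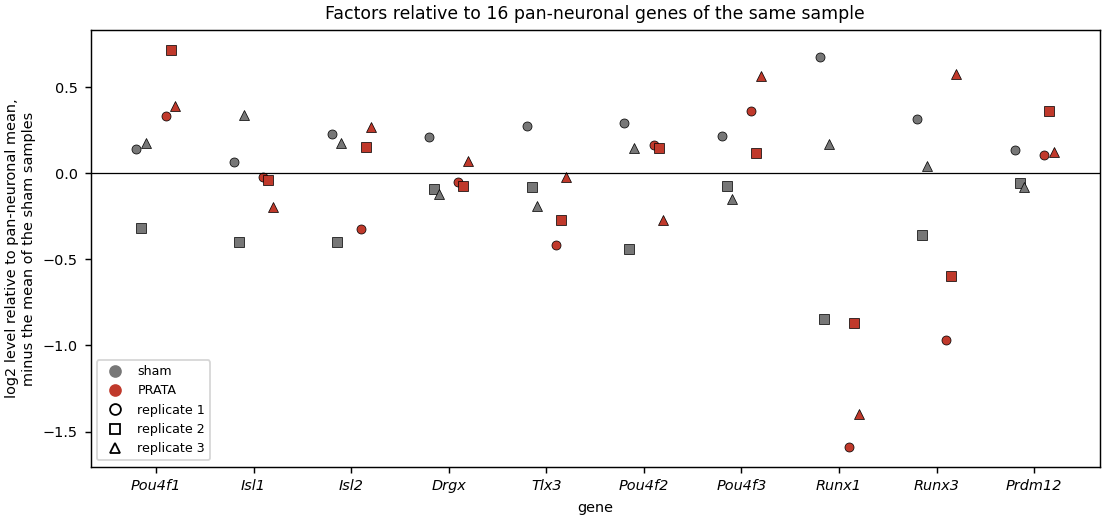
Log2 level of each factor relative to the mean of 16 pan-neuronal genes of the same sample, with the sham mean set to 0; colours give the group and symbols the replicate. Pou4f1 is higher and Runx1 lower in every PRATA sample, by 0.48 and -1.29 on average, and the other factors overlap.

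Runx1 is also used by cells other than neurons, so markers of the other cells were set beside it. The 12 genes of the satellite glia list summed to 4135, 6768 and 3480 CPM after PRATA and 8037, 4645 and 9116 CPM after sham. The groups overlapped, PRATA replicate 2 being above sham replicate 2. Of that list, 10 of 12 genes had a log2 fold change below 0 (median -0.47), from -1.63 for Sox10, the glial lineage factor and the single one whose groups did not overlap, to -0.02 for S100b, while Gfap was at 0.17 and Erbb3 at 0.89. Their part in the Runx1 difference was not tested. The 12 macrophage and leukocyte markers summed to 31.5, 87.4 and 116.1 CPM after PRATA and 97.6, 48.1 and 42.8 CPM after sham, with overlapping groups, and their part was not tested either. Of 12 lymphocyte markers, 6 were under 1 CPM in every sample, and their sum was 5.66 to 12.1 CPM after PRATA and 3.58 to 8.56 CPM after sham. Fibroblast markers summed to 341.1, 757.8 and 2006 CPM against 1855, 1010 and 926.6 CPM, with overlapping groups. Myelinating Schwann cell markers summed to 985.3, 1595 and 909.9 CPM against 905.4, 787.5 and 690.4 CPM, each PRATA sample above each sham sample. Endothelial and mural cell markers summed to 189.3, 266 and 237.9 CPM against 238, 229.4 and 91.7 CPM, with overlapping groups. The part of these lists in the Runx1 difference was not tested.

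**Figure D4:**
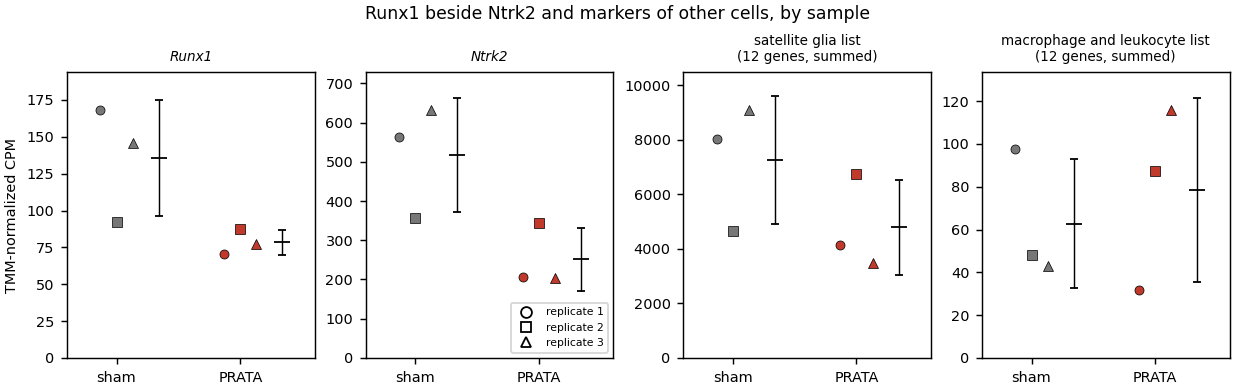
TMM-normalised CPM by sample of Runx1 and Ntrk2, and the summed CPM of the satellite glia list and the macrophage and leukocyte list; bars are the mean ± SD of 3 samples. Runx1 and Ntrk2 are lower in every PRATA sample than in any sham sample, and the 2 summed lists overlap between groups.

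Other transcription factors of the sensory lineage mostly stood on the same side as the broad factors. Of 44 listed, 37 were tested, 28 of them with a fold change above 0 and a median of 0.40. At an unadjusted p under 0.05, 11 were higher and 0 lower, beside 8.19% and 10.1% of all genes. Myt1l, a zinc finger repressor of non-neuronal genes, was at 104.6, 93.6 and 111.3 CPM against 64.3, 71.9 and 55.3 CPM, a log2 fold change of 0.69 ± 0.17 (unadjusted p = 0.003241). Klf7, a zinc finger factor of sensory neurons, was at 132.4, 125.4 and 109.2 CPM against 81.9, 82.0 and 77.0 CPM (0.61 ± 0.15, unadjusted p = 0.004269). In both genes the groups were apart. The zinc finger factors Casz1 (0.55) and Bcl11b (1.02) and the homeobox factor Cux2 (1.47) were also higher with unadjusted p of 0.009624, 0.008796 and 0.01138, the last at only 0.965 to 7.10 CPM. The adjusted p of these genes lay between 0.157 and 0.182 (edgeR), so none of them was called.

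Cofactors with which these proteins work showed no common direction. Of 12 tested, 7 had a fold change above 0 and 5 below, with a median of 0.12. At an unadjusted p under 0.05 (edgeR), 1 was higher and 1 lower, beside 8.19% and 10.1% of all genes. Cbfa2t3, a corepressor, was at 7.47, 5.80 and 6.86 CPM against 5.44, 3.11 and 3.49 CPM (0.72 ± 0.31, unadjusted p = 0.04688). Hipk2, a kinase that binds homeobox factors, Brn3a among them, was the single one lower at that level, and it is named after its values were seen. It was at 63.2, 93.3 and 68.6 CPM against 140.6, 76.3 and 135.1 CPM (-0.65 ± 0.27, unadjusted p = 0.04241), with sham replicate 2 inside the PRATA range. Cbfb, the partner that Runx1 and Runx3 need to bind DNA, was at 105.8, 73.9 and 115.4 CPM against 91.4, 97.6 and 77.9 CPM, a log2 difference of 0.14 with overlapping groups.

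Genes that these factors are known to control or that mark the subtypes were taken as a further list of 28, of which 26 were tested. Their median log2 fold change was 0.44, with 23 above 0. At an unadjusted p under 0.05, 5 were higher and 1 lower, beside 8.19% and 10.1% of all genes. Calca, which encodes CGRP and marks peptidergic neurons, was at 583.6, 525.3 and 698.1 CPM against 288.6, 443.0 and 269.0 CPM (0.85 ± 0.25, unadjusted p = 0.009524). The groups were apart, with sham replicate 2 nearest to the PRATA samples. Slc17a6, the vesicular glutamate transporter gene, Gfra3, the artemin receptor gene, and Ntrk3, the neurotrophin-3 receptor gene of proprioceptors, had log2 fold changes of 0.71, 0.71 and 0.69, with unadjusted p of 0.0158, 0.02124 and 0.0143.

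The exception was Ntrk2, the receptor gene for brain-derived neurotrophic factor, which touch neurons express in full length and glia in truncated form. It was at 206.2, 344.6 and 204.5 CPM against 563.3, 355.8 and 633.2 CPM, a log2 fold change of -1.04 ± 0.30 (unadjusted p = 0.008944, adjusted p = 0.175). It was the only gene of the list past a log2 fold change of 1 with an unadjusted p under 0.05, which 3.23% of all genes met in the lower direction. Genes of non-peptidergic nociceptors, grouped after their values were seen, lay close to 0. The log2 fold change was 0.02 for Mrgprd, a receptor gene of these neurons, 0.09 for P2rx3, an ATP-gated channel gene, 0.14 for Gfra2, 0.15 for Scn11a and -0.19 for Mrgprx3, each with overlapping groups.

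The genes whose level went most closely with Pou4f1 over the 6 samples, among 9242 compared, were Tuba1a, a tubulin gene, Nt5dc3, Stim1, which encodes a calcium sensor, Osbp2 and Slc4a8, with Pearson's r from 0.988 to 0.995. Those closest to Runx1 were Stag1, which encodes a cohesin subunit, AABR07026291.1, Thap12, Zfx and Ddx41, with r from 0.994 to 0.998. These values describe likeness over 6 points that share their libraries and the group difference, and no p is given for them. Among the factors, Pou4f3 and Drgx varied together most closely (r = 0.991), and Runx1 and Prdm12 most oppositely (r = -0.969), over the same 6 samples.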

How the data were processed

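RNA sequencing of 6 samples of L1-L2 DRG neurons from SHRs (3 PRATA, 3 sham) was analysed from the table that the authors deposited, which holds raw counts of reads per gene without normalisation. The libraries were made from total RNA with a stranded kit and depleted of ribosomal RNA. The study's methods name HISAT2, StringTie and Cuffdiff, whereas the submitters' processing notes name STAR 2.7.3a, RSEM and DESeq2. Which tool counted the reads, with which strand setting, genome build and annotation, and how multiply mapped reads were treated, is not given in the sources used here.

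The analysis used edgeR 4.0.16 under R 4.3.3. Genes were kept by filterByExpr (minimum count 10, minimum total 15), scaled by TMM and compared by the two-sided quasi-likelihood test without covariates, with Benjamini-Hochberg adjustment over the 14919 genes tested. Levels relative to 16 pan-neuronal genes used log2 CPM with a prior count of 1 and the exact permutation test over samples. CPM values are not corrected for gene length, so levels are compared within a gene and not between genes. Groups came from the sample labels. All columns of sample values were used (0 left out).

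The factors and all gene lists were chosen with earlier results of these data known, and lists serve as description. All 10 factors are reported. From the lists of other sensory factors, cofactors and downstream genes, up to 6 genes each were named by smallest unadjusted p among those under 0.05 with groups that do not overlap, together with any past a log2 fold change of 1. The 5 genes with the highest Pearson's r to Pou4f1 and to Runx1 were named among genes with a mean of at least 10 CPM. A few genes chosen in this way are not reported here. Insm1, Onecut3 and Gfra1 of the lists had no match by name. Sequences are from RefSeq, in which 10 of 10 factors matched, with 12 stretches. Alternatives were DESeq2 1.42.0 and its size factors, limma 3.58.1 (voom), library size alone, other count filters, a robust fit, the replicate block, each sample left out and the 4 samples with the same 7SL copy. The edgeR, robust, DESeq2 and voom fits of all 6 samples were run on simulated counts with known changes. The other alternatives were not run on them. Plots were made with matplotlib 3.10.9 under Python 3.11.15.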

Additional observations from a re-analysis of the deposited data

How the results depend on the processing

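The median of all genes stayed within 0.1 of 0 (log2) in every setting but that with no filter on low counts, where it was -0.17. All factors except Runx3 kept their direction under the alternatives run for them. Pou4f1 lay between 0.91 and 1.11, Prdm12 between 0.61 and 0.88, Pou4f3 between 0.70 and 1.13 and Runx1 between -1.0 and -0.60. Runx3 ranged from -0.32 (without PRATA replicate 3) to 0.71 (without PRATA replicate 2) with a sample left out and was at -0.33 in the 4 samples with the same 7SL copy, and its few counts limit it. In those 4 samples 2 factors were higher and 0 lower at an unadjusted p under 0.05 (edgeR), against 6 and 1, with 5.98% of all genes higher and 6.9% lower there. At the adjusted threshold DESeq2 and voom each called 3 factors higher and 1 lower, and the cause of this difference from edgeR's 0 was not tested. With each sample left out in turn, 4 to 6 factors were higher and 1 was lower unadjusted. Adjusted, 0 to 2 were higher and 0 to 1 lower, the calls coming without sham replicate 2. Of all genes, 3.47 to 13.4% were higher and 5.44 to 14.1% lower unadjusted in those fits. Adjusted, 1.05% were higher and 3.62% lower without sham replicate 2.

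Of the other sensory factors, 11 differed unadjusted and 18 by voom, with 7 (without PRATA replicate 1) to 17 (without sham replicate 2) when a sample was left out. Over all genes, voom called 30.9% unadjusted, and edgeR 8.91%, 27.6% and 9.33% without PRATA replicate 1, sham replicate 2 and sham replicate 3. Adjusted calls were 3 by DESeq2, 5 by voom and 0 to 1 with a sample left out. Of the 12 cofactors, 2 differed unadjusted, as did 2734 of the 14919 genes tested. By voom 6 differed, and in the 4 samples 1 did, where 12.9% of all genes differed. With a sample left out 0 to 3 cofactors differed, 0 being reached without PRATA replicate 1, PRATA replicate 3 or sham replicate 3. Without PRATA replicate 3, 13.1% of all genes differed. Adjusted, 0 to 1 cofactors were called with a sample left out. Of the downstream genes, 6 differed unadjusted, 14 by voom and 3 (without sham replicate 3) to 16 (without sham replicate 2) with a sample left out. Adjusted calls were 3 by DESeq2, 4 by voom and 0 to 3 with a sample left out. Relative to pan-neuronal genes, Pou4f1 differed by 0.32 to 0.57 and Runx1 by -1.71 to -0.95 with a sample left out.

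The groups share replicate numbers, which are not said to pair the samples. Same-numbered samples did not deviate together (correlations of -0.35, -0.04 and -0.35), but groups this small cannot settle whether they were paired. With the replicate number as a block, 4 factors were higher and 1 lower unadjusted, beside 4.16% and 6.08% of all genes, and 0 cofactors differed. Pou4f1 was at 1.02 with an adjusted p of 0.461 (edgeR) in that fit. No gene had a smaller adjusted p there, but such a value can be shared by several genes.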

Other observations

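Some genes of the lists owed their group means to 1 sample each, and they are named after their values were seen. Gal, which encodes galanin, a neuropeptide that injured sensory neurons make, was at 13.1, 70.6 and 2.92 CPM after PRATA and at 3.86, 9.96 and 5.18 CPM after sham. PRATA replicate 2 stood far above the other samples, and the remaining PRATA values lay across the sham range. Neurod1, a proneural helix-loop-helix factor, was at 7.0 CPM in sham replicate 2 and at 0.257 to 1.6 CPM in the others. Meis1, a homeobox factor, was likewise at 9.34 CPM in that sample and at 2.29 to 3.86 CPM elsewhere. Sham replicate 2 had the fewest counts, and Neurod1 rested on 45 counts and Meis1 on 60 counts there.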
